A study of Mus musculus with 30 samples.

Results

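The ERV1 families described here are class I endogenous retroviruses of mouse embryonic stem cells, less the families whose names start with RLTR6, RLTR1B, RLTR4_ or MuRRS. They were chosen by the superfamily and the repeat name that the deposited table gives each copy, and no measured value entered the choice. The table holds 8885 ERV1 copies in 133 families, of which 7043 copies in 123 families are members, among 319797 repeat copies in 1065 families and 382367 transcription units in all. Of the member families, 23 with 1213 copies are internal parts, whose names end in -int, and 100 with 5830 copies are long terminal repeats (LTRs). MMVL30-int and MuLV-int are members by this rule although the LTR families they adjoin most often, RLTR6_Mm and RLTR4_Mm, are not.

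The study ablated histone H3 lysine 9 (H3K9) methyltransferases in the dTKO embryonic stem cell line and followed nascent RNA by TT-seq, in which a brief 4-thiouridine label marks new RNA for sequencing. Cells were collected 0, 3, 12, 24 and 48 h after auxin and dTAG13, compounds that trigger the breakdown of degron-tagged proteins, with 3 biological repeats at each time (n = 3 for every mean below) and 0 h as the baseline. Every group, 0 h included, carries the genotype that the labels write as Suv39h1fl/fl; Suv39h2-/-; Setdb1fl/fl, was grown with LIF and serum on gelatin, and comes from the same line. Values are scaled reads, which are reads divided by 1 size factor per library, and ± gives the SD over 3 libraries.

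An endogenous retrovirus is a germline copy of a retrovirus. A complete copy, or provirus, has an internal part with the viral genes between 2 LTRs that are alike when the virus integrates. The 5′ LTR holds the promoter, the 3′ LTR holds the signal that ends the transcript, and recombination between the LTRs often leaves a solo LTR. In mouse embryonic stem cells many such copies carry H3K9 trimethylation laid down by SETDB1, which TRIM28 and KRAB zinc finger proteins bring to them, and SUV39H enzymes contribute at some. GLN viruses, here the families MMERGLN-int and MMERGLN_LTR, are named after the glutamine tRNA that primes their reverse transcription.

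Recovered reads in members ran from 19761 to 71442 per library, out of 37.1 to 42.3 M (mega) over all units. The summed level of the stem cell markers was between 12680 and 13510 scaled reads at 48 h and between 19260 and 21350 at 0 h, and none of the 10 was at 0. Of these 10, 9 were called lower and 1 higher at 48 h, where 58.4% of all genes were lower and 7.65% higher. Markers of cells like the 2-cell embryo summed to 1312 to 1576 at 48 h and to 35.0 to 42.9 at 0 h, with 4 of 8 tested and those 4 higher at 48 h. Markers of fibroblasts and feeders summed to 443 to 594 at 48 h and to 351 to 438 at 0 h, with 4 of 6 higher and 1 lower. Trophectoderm markers summed to 914 to 1116 at 48 h and to 916 to 935 at 0 h, and primitive endoderm markers to 458 to 515 and 433 to 474. Of 5 tested in each of these sets, 2 trophectoderm markers were higher and 3 lower, and 0 primitive endoderm markers were higher and 1 lower. The part of these shifts in the results below was not tested. The median gene changed by -0.24, 0.18, -0.08 and -0.37 (log2) at 3, 12, 24 and 48 h against 0 h. Many results are therefore also given rescaled over genes, and a result without a rescaled value may depend on the scaling too. Fewer cells with a transcript and less RNA per cell cannot be told apart in these bulk samples.

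The GLN sequences are shown first, since that family holds most of the members' signal from 12 h on. The border below is from the provirus on chromosome 8 described further on (chr8:121833247-121833306, plus strand, build GRCm38, from a GENCODE M21 transcript of the long non-coding gene Gm42047). Its first 28 bases are the end of the 5′ LTR, 2 bases follow, and the capitals mark the site complementary to the 3′ end of the glutamine tRNA.

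GLN border: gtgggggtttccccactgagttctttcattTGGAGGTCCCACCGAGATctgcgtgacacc

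The 3′ LTRs of 4 GLN proviruses could be read from GENCODE M21 transcripts that end in them, and bases 171 to 320 of each, counted from 1 at the first base of the LTR, are shown because the chromosome 8 provirus was the main one transcribed at 0 h while the others had few reads then. In the chromosome 8 line (chr8:121841005-121841154, plus strand) the capitals mark TATAAA, the letters of a TATA box. In the lines from chr9:25855340-25855489 and chr3:55578106-55578255 (both minus strand) and chr10:25903766-25903915 (plus strand) capitals mark bases that differ from the chromosome 8 line.

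Chromosome 8: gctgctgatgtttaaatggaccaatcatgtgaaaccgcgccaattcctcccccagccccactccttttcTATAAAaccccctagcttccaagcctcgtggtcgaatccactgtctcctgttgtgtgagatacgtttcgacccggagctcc
Chromosome 9: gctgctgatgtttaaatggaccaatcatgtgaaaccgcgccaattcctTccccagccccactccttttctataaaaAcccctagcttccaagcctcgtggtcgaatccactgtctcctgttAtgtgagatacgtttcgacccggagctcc
Chromosome 3: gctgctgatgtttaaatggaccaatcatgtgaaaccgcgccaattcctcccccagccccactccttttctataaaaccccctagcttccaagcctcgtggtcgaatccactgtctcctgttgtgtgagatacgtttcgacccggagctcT
Chromosome 10: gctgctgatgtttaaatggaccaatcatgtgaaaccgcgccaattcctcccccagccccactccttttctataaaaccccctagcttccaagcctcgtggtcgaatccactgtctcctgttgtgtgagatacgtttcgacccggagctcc

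The chromosome 9 LTR differed from that of chromosome 8 by C219T, C247A and G292A in this window, the chromosome 3 LTR by C320T, and the chromosome 10 LTR at no base. All 4 hold TATAAA at position 240, and of 32851 mouse promoter windows of 300 bases (RefSeq, GRCm38.p6) 13.6% hold TATAAA on either strand. Over the LTR bases shared by the transcripts the identity to chromosome 8 was 98.5% (344 bases, chromosome 9), 99.4% (321 bases, chromosome 3) and 100% (321 bases, chromosome 10). Over 2179 bases at the end of the internal part it was 98.3%, 98.8% and 98.8%. The sources used here do not say how reads that match several copies were handled, so the values of single copies this alike are uncertain.

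Transcription of the internal parts of these 4 proviruses differed at 0 h and changed in opposite directions. The chromosome 9 copy (chr9:25855660-25863214) averaged 225 ± 50.1 scaled reads at 48 h and 1.70 ± 2.28 at 0 h, with 6 reads in all at 0 h. The chromosome 3 copy (chr3:55578426-55585968) averaged 51.7 ± 14.5 at 48 h and 1.08 ± 1.88 at 0 h, and the chromosome 10 copy (chr10:25896041-25903595) 381 ± 62.8 at 48 h and 10.7 ± 8.36 at 0 h. These 3 rose (log2 change 6.71 ± 0.85, 4.98 ± 0.57 and 5.24 ± 0.82 SE, limma adjusted p = 9.2e-06, 3.6e-06 and 8.3e-05). At 0 h the chromosome 9 and 3 copies were under the mean of 10 needed for a test, passing only through later times. They had to differ from 0 h to be tested, while the chromosome 10 copy reached 10.7 at 0 h. The chromosome 8 copy (chr8:121833275-121840834, 7560 bases) fell to 2032, 2420 and 2120 scaled reads at 48 h, against 4331, 4853 and 3856 at 0 h, and the groups did not overlap.

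Across families, transcription of the members was little changed at 3 h and had risen in a subset from 12 h on. Families were tested as the sum of their copies with limma on log2(scaled reads + 1), over all 774 repeat families with a mean of at least 10 scaled reads, and families with an adjusted p under 0.05 (Benjamini-Hochberg, over all families tested) are said to have risen or fallen. Of the 123 member families 77 passed this minimum. At 3 h none rose and 1 fell, with 0 higher and 9 lower at an unadjusted p under 0.05, 0 higher and 0 lower by edgeR and 0 higher and 1 lower by DESeq2, and 1.55% of all families rose and 1.94% fell (3.49% called). At 12 h 23 rose and 0 fell (0 lower unadjusted and by both count tools; 32.9% of all families rose and 0.388% fell). At 24 h 21 rose and 1 fell, where 24.4% and 1.03% of all families did. At 48 h 22 rose and 3 fell, where 23.4% and 4.91% did, so the members' share of 28.6% higher was close to that of all families. After rescaling over genes, 2 member families rose and 0 fell at 3 h (5.04% and 0.129% of all families, 5.17% called), 19 rose and 1 fell at 12 h (27.4% and 1.42%), and 27 rose and 1 fell at 24 h (39.4% and 1.29%). At 48 h 45 then rose and 1 fell, where 64.5% and 1.29% of all families did (65.8% called).

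Sets beside them differed in these counts, without a test of the difference. At 48 h 10 of 10 ERV1 families outside the rule rose (median log2 change 1.34), as did 107 of 255 ERVK families (median 0.28), 4 of 67 ERVL families (median -0.02) and 6 of 81 ERVL-MaLR families (median 0.00), against a median of 0.01 for the members. Among the members 6 of 10 internal families rose and 1 fell, with a median of 0.65. Of the LTR families 16 of 67 rose and 2 fell, with a median of -0.01. After rescaling over genes 6 of 10 internal families rose and 1 fell (median 1.01), and 39 of 67 LTR families rose and 0 fell (median 0.35). The shares that rose were then 60.0% and 58.2%, beside 64.5% of all families, so the difference in counts depended on the scaling. Names that start with RLTR, RMER, MM, Mm, MU, Mu, LTRIS, Rod or RNERV held 21 of the 22 families that rose and 44 of the 77 tested. Of these 44 families 47.7% rose and 4.55% fell, beside 23.4% and 4.91% of all families. Of the other 33 families, MERV1_I-int rose and MER34-int fell (3.03% each). The list goes by the start of the name alone and was not checked against the species that hold each family. This split was not counted after rescaling over genes.

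**Figure D1:**
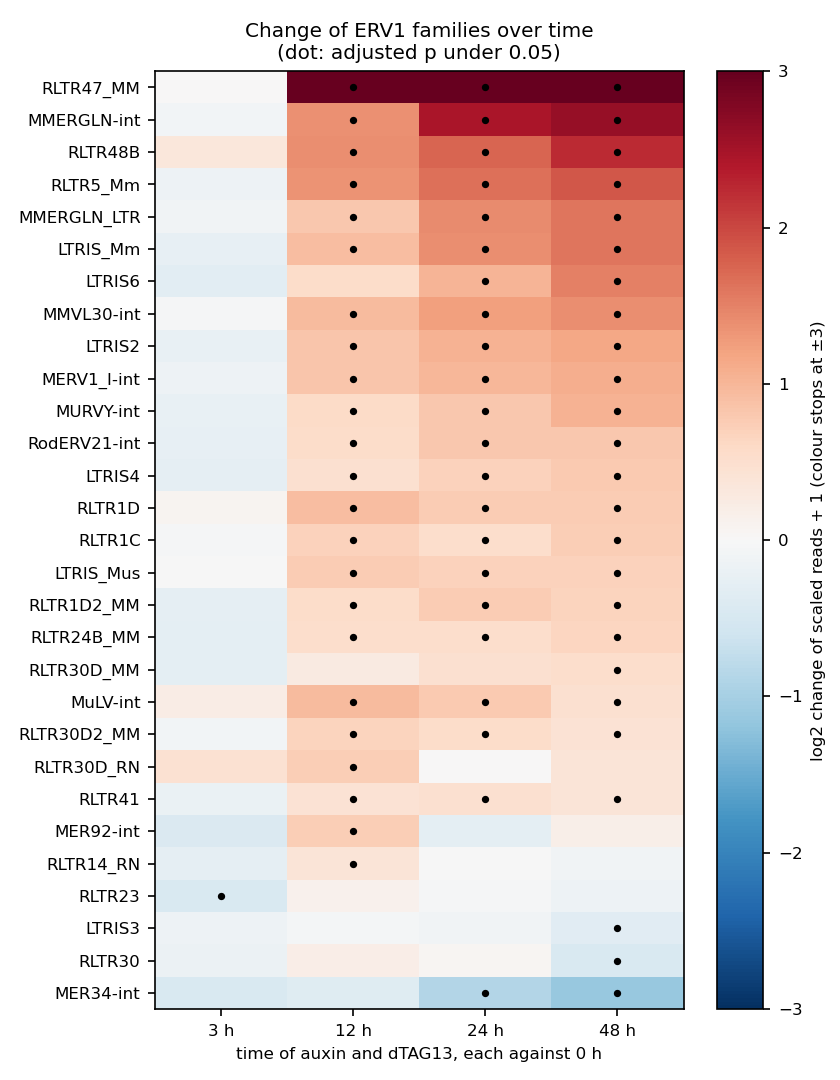
Log2 change of scaled reads + 1 at 3, 12, 24 and 48 h, each against 0 h, for the 29 member families called at any time, ordered by their change at 48 h; dots mark an adjusted p under 0.05. No rise was called at 3 h, 20 families were called higher at 12, 24 and 48 h, and MER34-int at the bottom was lower at 24 and 48 h.

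The time courses of the families depended in part on the scaling. Of the 22 families higher at 48 h, 15 had their highest mean at 48 h, 3 at 24 h and 4 at 12 h as deposited, while after rescaling over genes the change was largest at 48 h in 21 and at 24 h in 1, MuLV-int. As deposited 20 were called higher at 12, 24 and 48 h alike, and 18 of these also after rescaling, all but LTRIS4 and MURVY-int. These comparisons share the 0 h libraries, so the calls are not independent, and the same overlap was not counted over all families. RLTR14_RN, RLTR30D_RN and MER92-int were called higher at 12 h but not at 24 or 48 h, a course that 0 of the 3 kept after rescaling over genes, while LTRIS6 and RLTR30D_MM were called at 48 h but not at 12 h. Against 12 h, 7 families were higher at 48 h and 14 lower, where 11.1% and 28.6% of all families were (39.7% called). The median gene was lower by -0.54 (log2) at 48 h than at 12 h, and after rescaling over genes 41 families were higher and 0 lower at 48 h (56.5% and 0.388% of all), so the falls in this comparison depend on the scaling. MuLV-int, murine leukaemia virus internal parts, was at 439, 476 and 396 scaled reads at 48 h, against 485, 710 and 612 at 12 h and 324, 337 and 272 at 0 h, and was higher at 48 h than at 0 h (0.49, limma adjusted p = 0.0015). It was lower at 48 h than at 12 h by 0.45 on the log2 scale as deposited (-0.45, adjusted p = 0.0054), and the sign turned after rescaling over genes (0.09, adjusted p = 0.29). A copy at chr5:23701114-23708710 held 74.99% of this family at 0 h and 65.32% at 48 h. The copy averaged 233 scaled reads at 0 h, 474 at 12 h and 285 at 48 h. The family averaged 603 at 12 h and 437 at 48 h, so its fall was no larger than that of this copy. At 48 h the copy was not called against 0 h (0.30, limma adjusted p = 0.17). Without the copy the family rose by 0.94 (adjusted p = 1.1e-07).

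Among internal parts MMERGLN-int carried most of the signal and rose most. Its 191 copies summed to 31473, 36305 and 32930 scaled reads at 48 h, against 5417, 6012 and 4935 at 0 h, and the groups did not overlap. At 3 h it was at 5383, 4745 and 5234, overlapping 0 h and without a call, and at 12 and 24 h it averaged 14294 ± 2481 and 29946 ± 4692. The log2 change at 48 h was 2.62 ± 0.12 (SE, limma adjusted p = 1.5e-105). Of the whole members' signal, 51871 ± 3288 scaled reads at 48 h and 17849 ± 1124 at 0 h, the 429 MMERGLN copies held 36701 ± 2616 at 48 h and 6474 ± 570 at 0 h. The 6614 other copies summed to 15171 ± 710 at 48 h and 11375 ± 577 at 0 h.

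That family sum joined 2 opposite courses. At 0 h the chromosome 8 copy held 79.7% of the family's signal, at 4347 ± 499 scaled reads, and at 48 h it held 6.53%, at 2191 ± 203. It fell by 0.99 on the log2 scale (SE 0.18, limma adjusted p = 0.00027) and by 0.62 after rescaling over genes (adjusted p = 8.6e-05). At 3, 12 and 24 h it averaged 3616 ± 206, 4359 ± 880 and 3168 ± 581, with no call as deposited (limma adjusted p = 0.057 at 24 h), and at 24 h it was called lower after rescaling over genes (-0.39, adjusted p = 0.0057). The other 190 copies summed to 1108 ± 44.3, 1504 ± 327, 9936 ± 1603, 26778 ± 4115 and 31379 ± 2276 scaled reads at 0, 3, 12, 24 and 48 h, a ratio of 28.3 between 48 h and 0 h. Without the chromosome 8 copy the log2 change of the family at 48 h was 4.82, against 2.62 with it.

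**Figure D2:**
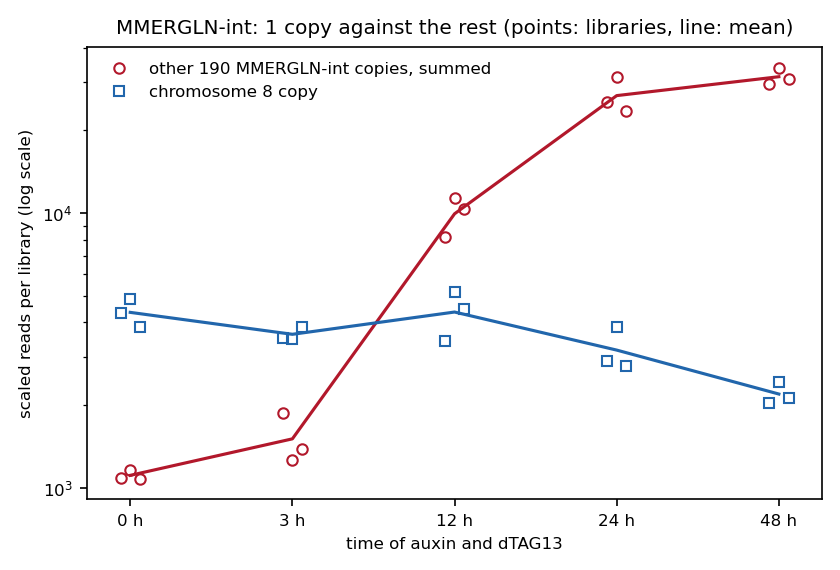
Scaled reads per library (log axis) of the chromosome 8 MMERGLN-int copy (squares) and of the other 190 copies summed (circles) at 5 times; lines join the means of 3 libraries. The chromosome 8 copy is the higher at 0 h, 4347 against 1108, and the lower at 48 h, 2191 against 31379.

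The signal of the family also spread over more copies. At 0 h 1 copy gave 50% of it and 5 copies gave 90%, at 12 h 3 and 21 copies did, and at 48 h 6 and 27 copies did. Copies with at least 1 read numbered 119 at 0 h and 174 at 48 h, and 72 copies had no read at 0 h. Copies of at least 7000 bases, near the full length of the internal part, numbered 59. The 58 of them other than the chromosome 8 copy summed to 24053 ± 2043 scaled reads at 48 h and 618 ± 67.4 at 0 h, a ratio of 38.9. The 132 shorter copies summed to 7325 ± 247 at 48 h and 490 ± 29.2 at 0 h, a ratio of 15.0.

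Single GLN copies showed the same opposition. Copies were tested over all 13519 repeat copies with a mean of at least 10 scaled reads, and 338 member copies passed. Of 62 MMERGLN-int copies tested, 59 rose at 48 h and 2 fell, where 26.0% and 12.3% of all copies did. A copy that passed the minimum through its level at 48 h had to differ, so these counts cover the copies that passed, not the family. With the minimum applied to 0 h alone, 13 of 17 rose and 1 fell (6.06% and 15.5% of all copies). That minimum in turn favours copies that were high in the 0 h libraries. Beside the chromosome 8 copy, the copy that fell was at chr4:11176470-11183871, named after its values were seen, with 156, 183 and 161 scaled reads at 48 h, against 212, 259 and 210 at 0 h (-0.44, limma adjusted p = 0.038), a call lost after rescaling over genes (-0.08, adjusted p = 0.57). The remaining tested copy, at chr4:146132768-146138035, was not called (adjusted p = 0.053).

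The copy with the highest level at 48 h lay at chr1:83981538-83989092 (minus strand) and was at 6461, 7459 and 6722 scaled reads, against 75.6, 111 and 100.3 at 0 h (log2 change 6.17 ± 0.31 SE, limma adjusted p = 6.0e-10). The copy at chr17:34752448-34760003 had no read in the 3 libraries at 0 h and was at 661, 799 and 718 scaled reads at 48 h, which is at least 871-fold higher than the level of 3 reads over the 0 h group. It was already called at 3 h, with 14.2, 1.27 and 4.65 scaled reads, a call lost with only the groups compared. The copy at chr10:26927402-26934948 was at 1678, 2307 and 2033 at 48 h, against 5.69, 8.32 and 6.001 at 0 h, and the copy at chr4:53939869-53947322 at 1474, 1777 and 1648 at 48 h, against 0.81, 31.6 and 3.43 at 0 h. All 3 libraries at 48 h were above all 3 at 0 h for each of these copies. Except for the chromosome 1 copy, named by its mean, this was a condition for naming them. The chromosome 17 and 10 copies had means under 10 at 0 h and passed the minimum for a test only through later levels. The 5 copies ranked next, on chromosomes 2, 10, 16, 13 and 6, rose by between 7.04 and 7.80 on the log2 scale. Their means at 0 h were 2.17 to 5.64 scaled reads, so they too passed the minimum only through later levels.

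**Figure D3:**
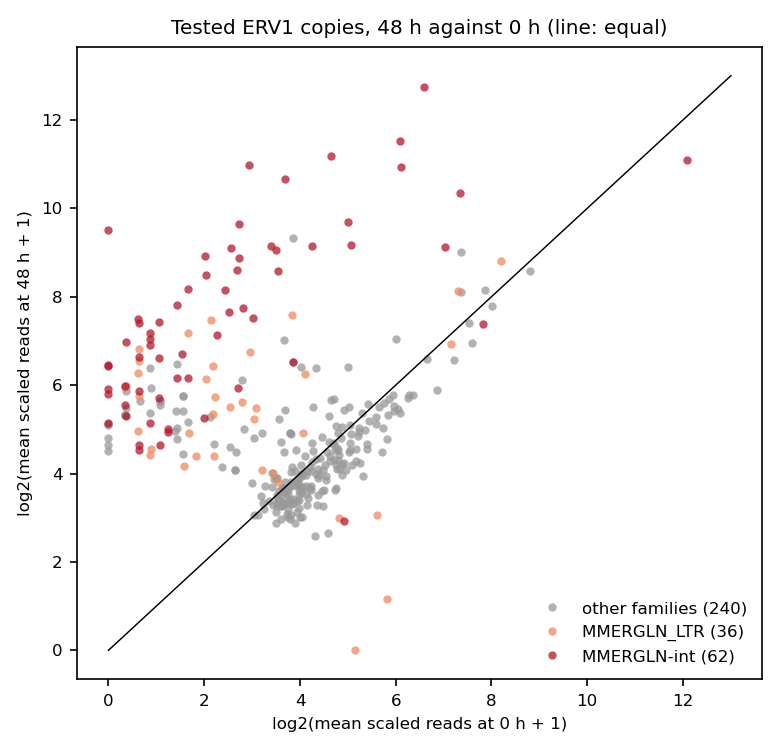
Mean scaled reads at 48 h against 0 h, as log2(mean + 1), for the 338 tested member copies, with MMERGLN-int, MMERGLN_LTR and all other families in different colours; the line marks equal levels. Most MMERGLN-int copies lie far above the line, the chromosome 8 copy at the upper right lies below it, and the other families lie on both sides.

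The LTRs of GLN proviruses rose as a family. MMERGLN_LTR as a family was at 2934, 3244 and 3215 scaled reads at 48 h, against 1012, 1054 and 993 at 0 h (log2 change 1.62 ± 0.12 SE, limma adjusted p = 3.2e-38). The 49 LTRs at the 5′ end of an internal part, within 10 bases, summed to 1790 ± 80.8 scaled reads at 48 h and 457 ± 10.4 at 0 h, a ratio of 3.92. The 44 at a 3′ end summed to 558 ± 55.8 at 48 h and 113 ± 43.5 at 0 h, a ratio of 4.94. In the 23 proviruses with both LTRs other than that of chromosome 8 these ratios were 11.8 (5′) and 8.87 (3′). The 145 with no internal part within 10 bases, which include solo LTRs, summed to 783 ± 46.5 at 48 h and 450 ± 13.8 at 0 h, a ratio of 1.74.

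Within the 23 proviruses that had both LTRs, the chromosome 8 provirus left out, levels per kilobase could be set side by side. The 5′ LTRs were at 91.0 scaled reads per kb at 48 h and 7.69 at 0 h, the internal parts at 115 and 1.94, and the 3′ LTRs at 43.8 and 4.94. In the chromosome 8 provirus the 5′ LTR (chr8:121832845-121833274) was at 385, 407 and 546 scaled reads at 48 h, against 289, 288 and 303 at 0 h, and rose (0.58, limma adjusted p = 0.0057), while the internal part beside it fell. Its 3′ LTR (chr8:121840835-121841264) was at 11.1, 10.8 and 0 scaled reads at 48 h, against 40.6, 87.3 and 16.3 at 0 h, and fell (-2.93, adjusted p = 0.013). That call was lost without replicate 2 of 0 h (adjusted p = 0.069) and without replicate 3 of 48 h (adjusted p = 0.061).

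**Figure D4:**
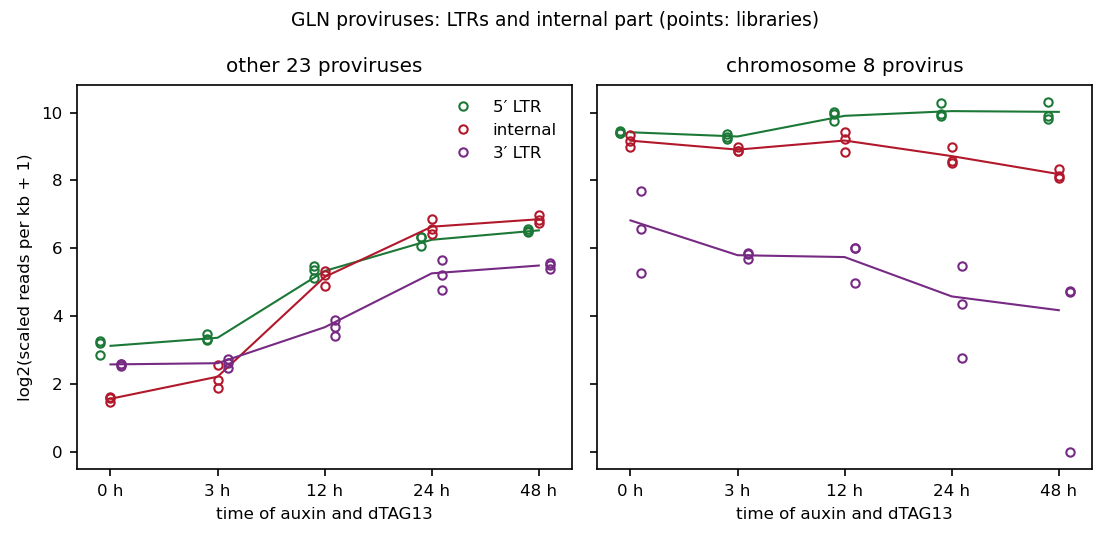
Scaled reads per kilobase, as log2(value + 1), of the 5′ LTR, the internal part and the 3′ LTR at 5 times, for 23 GLN proviruses with both LTRs (left, summed) and for the chromosome 8 provirus (right); circles are libraries and lines their means. On the left all 3 parts are higher at 48 h, and on the right the 5′ LTR is higher and the internal part and 3′ LTR lower at 48 h.

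Of 36 MMERGLN_LTR copies tested, 27 rose and 4 fell at 48 h (26.0% and 12.3% of all copies), and with the minimum applied to 0 h alone 4 of 11 rose and 4 fell (6.06% and 15.5% of all copies). The largest fall was of the 3′ LTR at chr15:83201744-83202173, with 0, 0 and 0 scaled reads at 48 h, against 33.3, 38.3 and 31.7 at 0 h (-5.14 ± 0.72 SE, limma adjusted p = 2.9e-05). This LTR averaged 10.2 scaled reads over all libraries and passed the minimum for a test only through its levels at 0 and 3 h. Its p-value therefore adds little support, and it was not tested after rescaling over genes. In the same provirus the internal part rose to 1946 ± 307 scaled reads at 48 h, against 68.0 ± 12.97 at 0 h, and the 5′ LTR rose to 191 ± 17.7, against 13.2 ± 8.46. A 5′ LTR at chr7:52333741-52334170 fell to 2.95, 0.77 and 0 scaled reads at 48 h, against 52.0, 69.0 and 45.4 at 0 h (limma adjusted p = 0.00019), while the internal part beside it rose to 29.7 ± 8.71, against 1.39 ± 2.40 (adjusted p = 0.00025). That internal part passed the minimum for a test only through its later levels, and that 5′ LTR only through its levels at 0 and 3 h. An LTR at chr17:6405832-6406261 fell to 0.74, 17.0 and 3.06, against 28.5, 26.6 and 26.6 (adjusted p = 0.0045). The part of read assignment among near-identical LTRs in these falls was not tested.

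The chromosome 8 provirus lay between units that were also transcribed at 0 h. Its internal part is 3706 bases from Klhdc4, a gene on the opposite strand that encodes a kelch domain protein, which was at 1955, 2054 and 1980 scaled reads at 48 h, against 2997, 3281 and 2910 at 0 h (-0.62 ± 0.12 SE, limma adjusted p = 3.6e-06; -0.25 after rescaling over genes). A non-coding unit on the provirus's strand that spans it (chr8:121829601-121870801) averaged 1628 ± 136 scaled reads at 48 h and 2436 ± 242 at 0 h. Per kilobase, the internal part was at 290 at 48 h and 575 at 0 h, against 39.5 and 59.1 for the non-coding unit and 60.0 and 92.1 for Klhdc4.

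Genes near the GLN copies that were named by rule moved in part with them. Ulbp1, which encodes a ligand of the NKG2D receptor of natural killer cells, lies 1406 bases from the chromosome 10 copy at chr10:7474883-7482445 on the same strand and was at 1700, 1982 and 1834 scaled reads at 48 h, against 170, 192 and 183 at 0 h (log2 change 3.33 ± 0.13 SE, limma adjusted p = 2.4e-148). That copy averaged 805 ± 133 at 48 h and 5.64 ± 4.74 at 0 h. Gm30551, 5249 bases from the chromosome 13 copy on the opposite strand, averaged 278 ± 26.1 at 48 h and 11.1 ± 3.50 at 0 h. C4b, which encodes a complement protein, lies 8551 bases from the chromosome 17 copy and averaged 22.3 ± 6.43 at 48 h and 2.50 ± 1.45 at 0 h. Arhgap18, Rpl24, Asns and Pid1, the genes nearest to 4 other named copies, were not called at 48 h, with log2 changes between -0.20 and 0.01, and rose by between 0.16 and 0.37 after rescaling over genes. Etl4, which holds a GLN copy on its opposite strand, fell by 0.39 (limma adjusted p = 0.0041), which is close to the median gene. Its call was lost after rescaling over genes (-0.02, adjusted p = 0.59).

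Other internal parts rose less. MMVL30-int, internal parts of VL30 elements, which are virus-like and have no working viral genes, was at 1199, 1390 and 1295 scaled reads at 48 h, against 468, 532 and 485 at 0 h (1.38 ± 0.13 SE, limma adjusted p = 7.5e-26). Its highest copy, 276 bases at chr17:17505383-17505658, averaged 519 ± 49.4 at 48 h and 163 ± 16.1 at 0 h, which was 40.1% and 33.0% of the family. The 57 copies that adjoin an RLTR6_Mm LTR summed to 374 ± 23.8 at 48 h and 118 ± 14.7 at 0 h, and the 158 others to 921 ± 74.5 and 377 ± 32.8. MERV1_I-int was at 742, 796 and 800 at 48 h, against 366, 385 and 354 at 0 h (1.08, adjusted p = 4.8e-15), with 8 copies higher and 3 lower of 13 tested (26.0% and 12.3% of all copies). With the minimum applied to 0 h alone, however, 2 of 8 were higher and 4 lower (6.06% and 15.5% of all copies). RodERV21-int rose by 0.80 and MURVY-int, internal parts of a family first found on the mouse Y chromosome, by 1.05. RLTR14-int, with a mean signal between those of MMVL30-int and MERV1_I-int, changed by -0.24 without a call (limma adjusted p = 0.17) and by 0.12 after rescaling over genes.

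Among LTR families the largest change was from no reads. RLTR47_MM has 12 copies of 496 bases, all on the X chromosome, and 11 of them adjoin MERV1_I-int. The family had no read in any library at 0 or 3 h and was at 10.1, 12.7 and 11.4 scaled reads at 12 h. It then reached 15.8, 16.8 and 18.6 at 24 h, and its libraries at 48 h had 28.1, 21.7 and 23.7. The level at 48 h is at least 29.4-fold higher than that of 3 reads over the 0 h group (limma adjusted p = 4.7e-22). With no read at 0 or 3 h, the family could pass the minimum for a test only through its later levels. Its call was therefore fixed by that minimum, and the p-value adds no support. The 11 MERV1_I-int copies beside these LTRs likewise had no signal at 0 h and averaged 35.9 ± 3.23 scaled reads at 48 h, while the 208 other MERV1_I-int copies averaged 743 ± 32.4 at 48 h and 368 ± 15.7 at 0 h. The copies lie from 3287223 to 34255291 on the X chromosome and are alike in length, so how their reads were shared out is uncertain.

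LTRIS2 was the LTR family with the highest mean signal. It was at 3447, 3927 and 3687 scaled reads at 48 h, against 1653, 1790 and 1525 at 0 h (1.16 ± 0.12 SE, limma adjusted p = 1.4e-20), and 26 of its 41 tested copies rose and 2 fell (26.0% and 12.3% of all copies). With the minimum applied to 0 h alone, 9 of 24 LTRIS2 copies rose and 2 fell (6.06% and 15.5% of all copies). Its highest copy (chr15:39246980-39247522) averaged 385 ± 53.6 at 48 h and 446 ± 26.4 at 0 h, without a call. The 35 LTRIS2 copies that adjoin RLTR1B-int, an internal part outside the rule, summed to 614 ± 42.7 at 48 h and 283 ± 58.6 at 0 h, a ratio of 2.17. The 512 others summed to 3073 ± 197 and 1373 ± 78.6, a ratio of 2.24. The LTRIS2 copy at chrX:114332237-114332725 was called from 3 h on, with 87.9, 94.5 and 65.7 scaled reads at 48 h, against 0, 2.50 and 0 at 0 h. That is 327 reads against 3, a ratio of 99.2 with an exact 95% interval of 33.7 to 484 that covers counting error only. At 3 h it was 20 reads against 3, a ratio of 5.53 (1.64 to 29), and that call was lost with only the groups compared. This copy passed the minimum for a test only through its later levels.

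Smaller LTR families rose as well. LTRIS_Mm was at 141, 175 and 181 scaled reads at 48 h, against 48.8, 60.7 and 51.4 at 0 h (1.61 ± 0.17 SE, limma adjusted p = 1.4e-19), and 29 of its 116 copies adjoin MuRRS-int. LTRIS6 was at 39.1, 42.6 and 54.3 at 48 h, against 14.6, 22.5 and 10.3 at 0 h. RLTR48B was at 51.7, 47.3 and 53.5 at 48 h, against 10.6, 9.15 and 10.3 at 0 h, and 1 of its 21 copies held 52.2% of the signal at 48 h and 16.8% at 0 h. RLTR5_Mm was at 36.9, 25.6 and 25.2 at 48 h, against 5.69, 5.82 and 11.1 at 0 h. In each of these families all libraries at 48 h were above all at 0 h, which was a condition for naming them. RLTR5_Mm was under the mean of 10 at 0 h and passed the minimum for a test only through its later levels. The 9 other LTR families called higher, among them RLTR1C, RLTR1D, LTRIS_Mus and RLTR41, rose by between 0.38 and 0.79.

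How much a family's change rested on 1 copy varied. For 21 of the 22 families that rose, the sum without the copy of highest mean could be tested, and 19 were still called. RLTR30D2_MM changed by 0.08 without that copy, against 0.44 with it, and RLTR30D_MM by -0.18, against 0.52. In 13 families the change was larger without the highest copy and in 8 smaller. Of the 17 highest copies that were tested themselves, 5 rose, 3 fell and 9 were not called, where 26.0% of all copies rose and 12.3% fell. LTRIS4 changed by 2.00 without its highest copy and by 0.79 with it, while its copies at least 1 kb from any ERVK copy fell by 0.54 (limma adjusted p = 0.045), and 17 of its 27 copies lie closer than that.

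**Figure D5:**
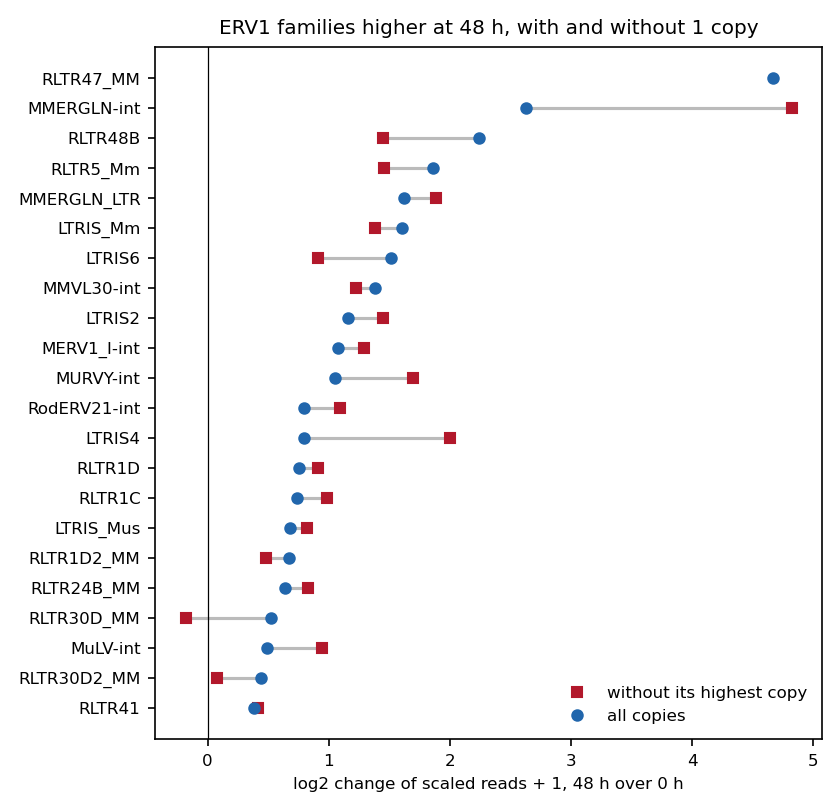
Log2 change of scaled reads + 1 at 48 h over 0 h for the 22 member families that rose, from all copies (circles) and from all copies but the one with the highest mean (squares). MMERGLN-int lies at 4.82 without that copy and at 2.62 with it, while RLTR30D_MM and RLTR30D2_MM lie at -0.18 and 0.08 without it.

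Few families fell. MER34-int, internal parts of an old family shared among mammals, was at 25.8, 13.9 and 24.5 scaled reads at 48 h, against 44.7, 55.7 and 41.2 at 0 h, and the groups did not overlap (-1.14 ± 0.23 SE, limma adjusted p = 5.3e-06; -0.79 rescaled over genes). A copy of 241 bases at chr17:36972414-36972654 held 52.9% of it at 48 h and 54.3% at 0 h, and without that copy the change was -1.01 (adjusted p = 0.0062). Its LTR family MER34 was at 19.9, 18.6 and 23.7 at 48 h, against 13.01, 24.95 and 25.7 at 0 h, without a call. An RLTR41 copy near that MER34-int copy on the same strand (chr17:36973136-36973564), named after its values were seen, fell to 21.5 ± 0.92 scaled reads at 48 h, against 51.4 ± 1.26 at 0 h.

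The other falls depended on scaling or on single libraries. LTRIS3 was at 301, 335 and 314 scaled reads at 48 h, against 358, 403 and 454 at 0 h (-0.35 ± 0.14 SE, limma adjusted p = 0.042), changed by 0.01 after rescaling over genes, and lost its call without replicate 2 or 3 of 0 h or without any 1 library of 48 h (adjusted p between 0.059 and 0.26). RLTR30 fell by 0.45 (limma adjusted p = 0.041), with overlapping groups, and changed by -0.09 after rescaling (adjusted p = 0.61). RLTR23 was the family that fell at 3 h (-0.45, limma adjusted p = 0.049), a call lost after rescaling over genes (-0.21, adjusted p = 0.089) and without any 1 of the 6 libraries compared. The abundant families RMER5 and MLTR14 were at 949 to 1025 and 782 to 849 scaled reads at 48 h, against 995 to 1108 and 893 to 943 at 0 h, with log2 changes of -0.08 and -0.16, no call, and 0.28 and 0.21 after rescaling.

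Over all member copies tested, 144 of 338 rose and 33 fell at 48 h. Without the MMERGLN copies 58 of 240 rose and 27 fell, against 26.0% and 12.3% of all copies. At 3 h 7 rose and 1 fell (2.50% and 0.266% of all, 2.77% called), at 12 h 115 and 3 (20.8% and 1.83%), and at 24 h 145 and 10 (25.4% and 6.25%). Where the minimum was applied to 0 h alone, 35 of 245 rose and 32 fell at 48 h (6.06% and 15.5% of all copies). Without the MMERGLN copies 18 of 217 then rose and 27 fell (8.29% and 12.4%). Falls outnumbered rises among all copies too, and this minimum favours copies that were high in the 0 h libraries. The excess of falls is therefore not particular to the members. With no minimum 391 of 6964 rose and 32 fell (4.05% and 0.575%, 4.63% called). Rescaled over genes, 166 of 344 rose and 10 fell (32.6% and 5.24% of all copies, 37.8% called). Of 7043 copies 79 had no read in any library.

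Genes of the H3K9 and retroviral silencing pathway were followed as a list of 43, of which 41 were in the table and tested. At 48 h 1 rose and 29 fell, with a median log2 change of -0.36, where 7.65% of all genes rose, 58.4% fell (66.0% called) and the median was -0.37, and rescaled over genes 13 rose and 12 fell. Degron tags act on proteins, so RNA levels do not check the loss of the methyltransferases. Setdb1 was at 690, 782 and 726 scaled reads at 48 h, against 847, 870 and 820 at 0 h, without a call (-0.21, limma adjusted p = 0.13) and higher after rescaling over genes (0.15, adjusted p = 0.0038). Suv39h1 was at 445, 438 and 481 at 48 h, against 450, 522 and 478 at 0 h (-0.08, adjusted p = 0.56; 0.28 rescaled, adjusted p = 5.7e-05). Suv39h2, labelled as deleted in every group, gave 803 ± 69.4 scaled reads at 48 h and 1092 ± 72.9 at 0 h, so its locus was still transcribed. It fell as deposited (-0.44, limma adjusted p = 0.0011) and was not called after rescaling over genes (-0.08, adjusted p = 0.12). Trim28, which encodes the corepressor that brings SETDB1 to retroviral copies, was at 2002 ± 169 at 48 h and 3166 ± 239 at 0 h (-0.66, limma adjusted p = 5.7e-07; -0.30 rescaled). Zfp42, which encodes the stem cell factor REX1, was the gene of the list that rose (0.86, limma adjusted p = 6.2e-11).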

How the data were processed

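TT-seq of 15 libraries, 3 at each of 5 times, was used. The values are the deposited signal per unit, which the authors made by dividing reads by 1 size factor per library; the series text describes a yeast spike-in for adjusting signal between times, but the file does not show whether the size factors rest on it. The submitters' processing notes name STAR 2.5.2a, DESeq2, deepTools and mm10 or GRCm38; how reads were assigned to units, whether by strand, what was done with reads that match several copies, and which repeat annotation was used were not stated there. Each library was sequenced in 2 runs, which the deposited columns join. Whole reads were recovered for 99.997% or more of values (tolerance 0.05), and 1 read was worth 0.636 to 0.936 scaled reads.

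From these values, families were summed over copies, and limma 3.58.1 (R 4.3.3) with an intensity trend was fitted on log2(scaled reads + 1) with time as a factor over all 15 libraries, separately for 774 families, 13519 copies and 15261 genes with a mean of at least 10. Calls were two-sided at a Benjamini-Hochberg adjusted p under 0.05. Rescaling over genes used median-of-ratios factors. Recovered reads were tested with edgeR 4.0.16 (quasi-likelihood) and DESeq2 1.42.0, and the fit was tested on simulated data. P-values rest on the spread between these libraries. For families and genes as deposited, that spread came from a trend with mean signal shared over all units tested, not from each unit alone. RLTR30 and MER51-int, with SDs of 17.8 and 7.67 scaled reads at 48 h, had an SE of 0.179 each. Very small p-values of families and genes therefore do not measure the spread of that unit's own libraries. Repeat starts were written 1-based.

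Members and lists were chosen with earlier results of these data known. Families were named by their largest changes among called families whose groups did not overlap and by their mean signal, copies likewise, and genes by distance to named copies. MuLV-int, MERV1_I-int, RodERV21-int, MURVY-int, RLTR14-int, RLTR30, RLTR41, LTRIS4, RLTR30D_MM and RLTR30D2_MM, and the copies described as highest of their family or as falling beside a named provirus, were named after their values were seen. Same-numbered libraries did not deviate together (correlations of -0.102 to 0.143, 2 of 30 pairs over 0.1).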

Additional observations from a re-analysis of the deposited data

How the results depend on the processing

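Rescaled over genes, 46 families were called at 48 h (25 as deposited), 41 at 48 h against 12 h (21), 2 at 3 h (1) and 17 copies at 3 h (8), and the 48 h changes of LTRIS3, RLTR23, RMER5 and MLTR14 turned to 0.014, 0.22, 0.28 and 0.21; the cause was not tested. The 1 family called at 3 h became 5 with only the groups compared, 3 without the highest copy, and 0 with no trend, a pseudocount of 5, no minimum, edgeR, copies outside genes or copies 1 kb from ERVK. The 8 copies called at 3 h became 0 with only the groups compared, 2 with a pseudocount of 5 or the minimum at 0 h alone, and 3 by edgeR. The minimum on low values fixed the number of copies tested: applied to 0 h alone it gave 34, 45 and 67 calls at 12, 24 and 48 h, and with no minimum 292 at 24 h and 423 at 48 h, against 118, 155 and 177. Leaving out 1 library in turn gave 0 to 0, 16 to 29, 20 to 22 and 21 to 22 families at 3, 12, 24 and 48 h, 11 to 30 at 48 h against 12 h (11 without replicate 2 of 12 h, 13 without replicate 1 or 3 of 48 h), 5 to 13, 112 to 126, 146 to 152 and 162 to 172 copies, and 22 to 29 silencing genes. With a replicate block, 24, 22 and 25 families were called at 12, 24 and 48 h and 22 at 48 h against 12 h, with 6, 124, 156 and 179 copies at 3, 12, 24 and 48 h and 31 silencing genes; the numbers do not pair the libraries. Of the alternatives for named families at 48 h, 269 kept the direction and the side of the threshold, 8 lost the call and 4 turned the sign; for named copies 244 and 3 did the first and the second. The call of the chromosome 8 3′ LTR was also lost with only the groups compared (adjusted p = 0.071). Depth limits single copies: at 0 h a level under 3 reads cannot be told from none.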
